A study of Mus musculus with 4 samples.

Results

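Heparan sulfate is a sulfated sugar chain carried by proteoglycans on the cell surface and in the basement membrane. It was followed here through the genes that build, carry and edit it, in primary colonic epithelial cells of C57BL/6 mice. The set holds every gene of the deposited count table whose symbol belongs to the exostosins, the heparan sulfate sulfotransferases, the glypicans, the syndecans, the extracellular sulfatases or the xylosyltransferases, together with Glce, Hspg2, B3gat3, B3galt6, B4galt7, Hpse and Agrn. These are 41 genes of 50600. B3galt6 and B4galt7 were left out of all statistics, which leaves 39. The set was proposed because Extl1 and Gpc1 were far higher in the knockout, so the fold changes of these 2 genes are given as a description, without a test.

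Cells labelled Mettl14 KO (2 libraries) were compared with cells labelled Mettl14 WT (2 libraries). Both genotypes share the C57BL/6 strain, and mRNA was selected with oligo-dT beads. METTL14 is the RNA-binding partner of METTL3 in the m6A writer of mRNA. The labels have no field for age or sex. The titles of all 4 libraries share the code C-2W, which is not explained and may state an age or a time. The labels do not say how or in which cells Mettl14 was deleted, and do not say whether a library pooled animals.

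The libraries held 22136440 to 24991060 counts. Of these, 28.6% to 33.8% fell on mitochondrial genes and a further 9.52% to 11.2% on gene copies of mitochondrial sequence. The depth left for the other genes was lower by these shares. Mettl14 itself had 3.99 and 3.94 CPM (counts normalised to library size) in KO, against 11.7 and 8.67 CPM in WT, so that it was lower but still detected in both KO libraries. Its log2 fold change was -1.36 (SE 0.22, edgeR adjusted p = 0.0504). Xist and 4 Y-linked genes marked KO replicate 2 and WT replicate 1 as male and the other libraries as female. The libraries of a genotype therefore did not come from the same mouse, and the spread between them includes any difference between the sexes. All 12 markers of colonic epithelium were tested and 0 were called by edgeR. Their summed level was 10082 and 9410 CPM in KO, against 11932 and 13430 CPM in WT. Both KO libraries stood below both WT libraries in 7 of the 12 and above them in 1, against 32.2% and 31.1% of all genes. Fibroblast markers summed to 91.5 and 628 CPM in KO, against 66.2 and 93.6 CPM in WT, so KO replicate 2 stood apart. Macrophage markers summed to 182 and 170 CPM in KO, against 73.6 and 104 CPM in WT. Of these 10 markers 3 were called higher, against 1.72% of all genes, and of the 10 fibroblast markers 0 were called. In bulk RNA, fewer cells of a type and less RNA per cell cannot be told apart.

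Synthesis starts on a serine of the core protein, where a short linkage sugar is made by xylosyltransferases, galactosyltransferases and a glucuronyltransferase. EXTL3 adds the first sugar of the chain, and EXT1 and EXT2 extend it together. N-deacetylase/N-sulfotransferases, an epimerase and O-sulfotransferases then modify the chain. Outside the cell, the Sulf enzymes remove 6-O-sulfate groups and heparanase cuts the chain. In the gut, heparan sulfate is known as a co-receptor for growth factors at the basolateral surface of epithelial cells.

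The promoters of Extl1 and of the called genes described below, Ext2 and Sulf2, are shown because these genes carry the largest or firmest differences. That of Hspg2 is shown beside them. Hspg2 was not called by the main edgeR test, at a log2 fold change of 1.70 (edgeR adjusted p = 0.0557). Each window runs from 250 bases before to 50 bases after a RefSeq transcript start (GRCm38.p6), 5′ to 3′ on the gene's strand. The windows are chr4:134372498-134372797 (minus strand) for Extl1 and chr2:93822519-93822818 (minus strand) for Ext2. Sulf2 has 2 annotated starts, with the windows chr2:166155634-166155933 and chr2:166155236-166155535 (minus strand), and Hspg2 has chr4:137468553-137468852 (plus strand). Capitals mark matches, on either strand, to any of 5 motifs. The GC box was searched as GGGCGG and the CCAAT box by its name. The TATA box was searched as TATAAA and the E-box as CACGTG. The AP-1 motif was searched as TGANTCA. No marked match overlaps another.
Extl1: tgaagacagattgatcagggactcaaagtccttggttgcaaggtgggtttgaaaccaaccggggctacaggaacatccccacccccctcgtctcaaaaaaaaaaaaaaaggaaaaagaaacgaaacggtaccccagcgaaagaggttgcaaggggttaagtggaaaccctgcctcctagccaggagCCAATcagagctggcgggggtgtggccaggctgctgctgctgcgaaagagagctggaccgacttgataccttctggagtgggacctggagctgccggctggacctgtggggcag
Ext2: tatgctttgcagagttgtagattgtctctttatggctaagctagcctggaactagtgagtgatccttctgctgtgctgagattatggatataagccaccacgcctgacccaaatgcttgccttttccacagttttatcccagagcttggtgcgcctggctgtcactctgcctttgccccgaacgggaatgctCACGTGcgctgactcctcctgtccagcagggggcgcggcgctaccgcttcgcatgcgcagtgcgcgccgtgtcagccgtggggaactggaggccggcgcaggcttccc
Sulf2 upstream start: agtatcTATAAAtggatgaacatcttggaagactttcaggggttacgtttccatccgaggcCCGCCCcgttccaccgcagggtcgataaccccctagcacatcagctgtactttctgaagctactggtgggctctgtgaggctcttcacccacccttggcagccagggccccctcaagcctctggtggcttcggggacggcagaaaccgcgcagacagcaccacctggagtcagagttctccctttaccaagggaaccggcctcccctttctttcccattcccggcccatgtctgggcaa
Sulf2 downstream start: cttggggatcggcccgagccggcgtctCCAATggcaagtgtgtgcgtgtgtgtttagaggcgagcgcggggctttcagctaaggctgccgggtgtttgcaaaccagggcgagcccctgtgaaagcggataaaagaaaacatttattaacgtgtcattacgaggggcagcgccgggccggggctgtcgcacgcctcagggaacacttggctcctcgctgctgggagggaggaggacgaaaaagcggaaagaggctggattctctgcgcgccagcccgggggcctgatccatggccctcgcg
Hspg2: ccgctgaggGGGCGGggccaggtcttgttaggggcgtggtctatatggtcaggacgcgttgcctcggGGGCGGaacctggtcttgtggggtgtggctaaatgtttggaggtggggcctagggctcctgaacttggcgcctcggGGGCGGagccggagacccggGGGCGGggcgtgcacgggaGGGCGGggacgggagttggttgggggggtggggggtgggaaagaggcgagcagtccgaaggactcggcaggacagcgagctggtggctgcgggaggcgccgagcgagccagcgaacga

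A table of promoters held 29 of the 39 genes, with 34 starts; Gpc1, Ext1, Extl3, Gpc6, Hs3st6, Ndst1, Ndst4, Sdc2, Sulf1 and Xylt1 have no entry. The genes that it holds mostly have CG-rich starts, with a median of 23 CG dinucleotides in the 300 bases, against 7 over all 32851 promoters. Extl1 is among the starts with fewer, with 9 CG dinucleotides and no GC box. Hs3st5 also has 9, the downstream start of Extl2 has 6, and the Ndst3 starts have 3 and 1. The windows of Ext2 and of the downstream Sulf2 start have no GC box either. The GC box occurred in 24 of the 34 windows (70.6%), against 35.7% of all promoters, and Hspg2 has 5 matches. The CCAAT box, present once in the Extl1 window, occurred in 14 of the 34 (41.2%), against 37.4% of all. The TATA box and the E-box occurred in 3 windows each (8.8%), against 13.6% and 7.15% of all, and the AP-1 motif in 0, against 7.81% of all. A match is a description of the letters, not a binding site.

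In WT cells the syndecans Sdc4 and Sdc1 were the most abundant of these genes when counts were divided by the length of the annotated exons. They stood at 54.0 ± 0.733 for Sdc4 and 48.8 ± 3.03 for Sdc1, in CPM per kilobase (SD, n = 2), and their WT libraries did not overlap. The order of these 2 depends on the length used. In CPM Sdc1 was the higher in WT, at 194 and 178 against 136 and 139 for Sdc4. Gpc4 (14.4 ± 3.63) and Hs6st1 (13.0 ± 5.08) followed and did not differ beyond their spread. Ndst1 (8.06 ± 0.673) and Agrn (7.81 ± 0.948) came next, again without a difference beyond their spread. Extl1 and Gpc1 were low in WT, at 0.501 ± 0.143 and 0.693 ± 0.0693 CPM per kilobase, and of the tested genes Hs3st3a1, Gpc2 and Gpc6 were lower than both. Sdc3 (0.458 ± 0.0676) and Extl1 did not differ beyond their spread. In KO cells Sdc1 led, at 48.1 ± 2.98, ahead of Sdc4 at 38.6 ± 1.97, and Extl1 reached 5.39 ± 0.409 and Gpc1 3.48 ± 0.433 CPM per kilobase.

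**Figure D1:**
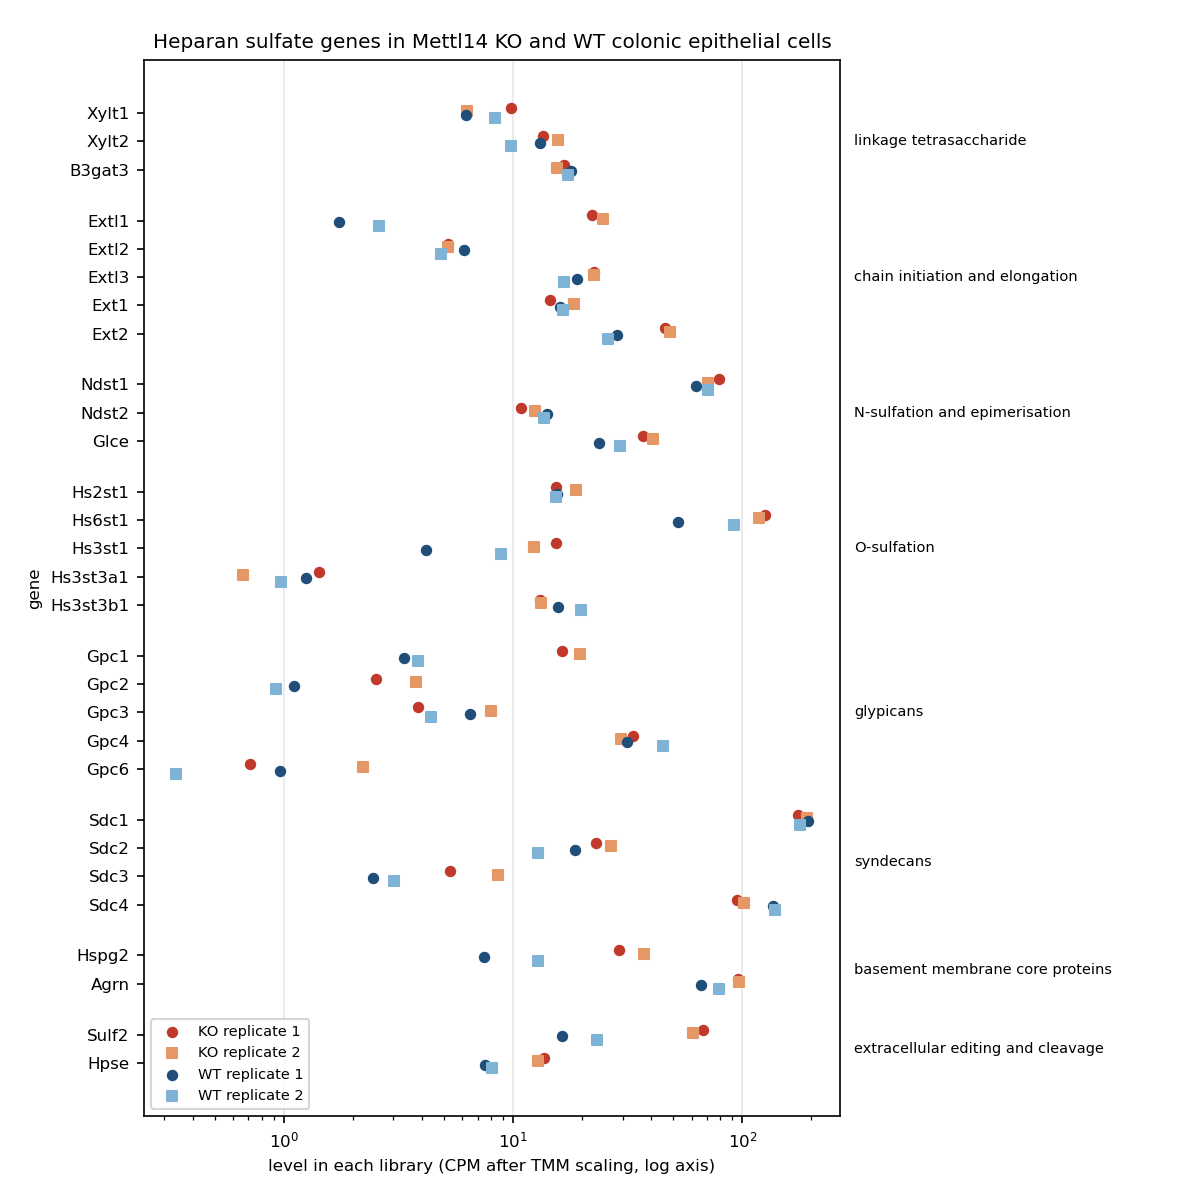
Level of each tested gene in each library (CPM after TMM scaling, log axis), grouped by role, with KO libraries in red and orange and WT libraries in blue. Extl1 and Gpc1 lie apart between the genotypes, at 22.1 and 24.6 CPM against 1.73 and 2.61 CPM for Extl1, while the 4 libraries of Sdc1 lie together between 175 and 194 CPM.

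Of the 39 genes, 29 had enough counts to be tested. The other 10 were Ndst3, Ndst4, Hs6st2, Hs6st3, Hs3st2, Hs3st4, Hs3st5, Hs3st6, Gpc5 and Sulf1. Ndst4, Hs6st3, Hs3st2, Hs3st4 and Hs3st6 had 0 counts in all 4 libraries, which allows a level of up to 0.12 to 0.136 CPM (3 counts, counting error only). The other untested genes had at most 51 counts in any library.

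Ext2 and Sulf2 rose in KO by edgeR's quasi-likelihood test with Benjamini-Hochberg adjustment over all 14861 genes. They were 2 of the 27 tested members other than Extl1 and Gpc1, and none of the 27 was called lower. Over all genes, 3.61% were called in either direction, 1.72% higher and 1.90% lower. Of these calls 47.5% were higher, against 76.5% with library size scaling, which moves the median of all genes up by 0.17 on the log2 scale. As the set was proposed from this same contrast, nothing is read from that count. At an unadjusted p under 0.05, 11 of the 27 were higher and 2 lower, against 14.8% and 15.7% of all genes. Both KO libraries stood above both WT libraries in 14 of the 27 and below them in 4, against 31.1% and 32.2% of all genes, and the groups overlapped in 9. The median log2 fold change was 0.34 over the 27 and -0.01 over all tested genes.

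The edgeR adjusted p of every called gene lay between 0.0434 and 0.0499, and 2682 genes were under 0.1. Another 5 of the 27 members were higher and 1 lower with an adjusted p under 0.1 but not under the threshold. With KO replicate 1 left out, edgeR called 0 genes in the whole table, with 2257 genes and 8 members (all higher) at an unadjusted p under 0.05. With KO replicate 2 left out, it also called 0 genes, with 1987 genes and 4 members (all higher) at that level. Without WT replicate 1 it called 4 members higher, and without WT replicate 2 it called 8. DESeq2 called 6 members higher (Ext2, Gpc2, Hpse, Hspg2, Sdc3 and Sulf2) and 1 lower (Sdc4).

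**Figure D2:**
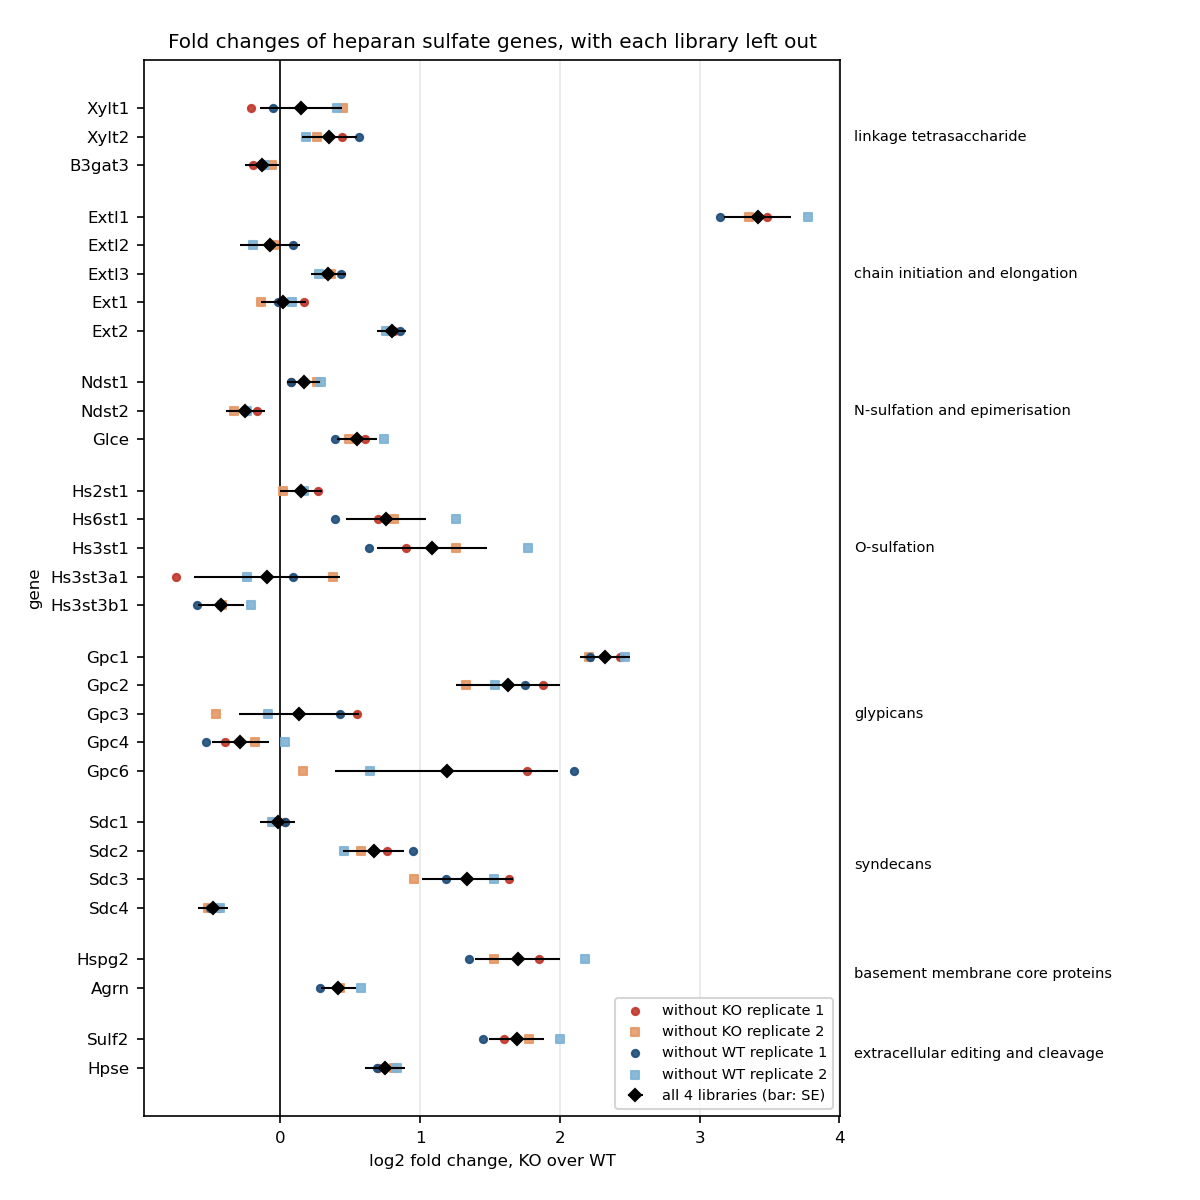
Log2 fold change, KO over WT, of each tested gene (black diamonds with SE bars) and the value when 1 library is left out (coloured points). Extl1 stays between 3.15 and 3.78 and Gpc1 between 2.21 and 2.46, while Gpc6 runs from 0.16 to 2.10.

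Among the enzymes that start and extend the chain, Extl1 differed most. Extl1 (ENSMUSG00000028838, chromosome 4, 134356372 to 134383850, minus strand) encodes an exostosin-like glycosyltransferase whose human counterpart adds N-acetylglucosamine to growing chains. It had 498 and 631 counts in KO, against 36 and 62 in WT, or 22.1 and 24.6 CPM in KO and 1.73 and 2.61 CPM in WT. The log2 fold change was 3.42 (SE 0.24), a fold of 10.7. Both KO libraries were high, both WT libraries low, and the ranges are far apart.

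Extl3, which starts the heparan sulfate chain, had 22.6 and 22.5 CPM in KO, against 19.0 and 16.6 CPM in WT (log2 fold change 0.34, edgeR adjusted p = 0.155). Extl2, which can act on the linkage region, had 5.19 and 5.18 CPM in KO, against 6.07 and 4.84 CPM in WT (-0.07). Within each library, the ratio of Extl1 to Extl3 per exon length, which does not depend on scaling, was 1.37 and 1.53 in KO, against 0.128 and 0.220 in WT. By annotated exon length, Extl1 was above Extl3 in both KO libraries and below it in both WT libraries. The order in KO replicate 1 depends on the length used. In CPM, Extl1 was just below Extl3 there, at 22.1 against 22.6.

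Ext2 (ENSMUSG00000027198, chromosome 2, 93661028 to 93822568, minus strand) encodes the partner of Ext1 in the copolymerase that extends the chain. It had 46.0 and 48.2 CPM in KO, against 28.5 and 25.8 CPM in WT. It averaged 47.1 ± 1.51 CPM in KO and 27.1 ± 1.89 CPM in WT (SD, n = 2 each). On the log2 scale it rose by 0.80 (SE 0.11, edgeR adjusted p = 0.0443). Ext1 had 14.5 and 18.4 CPM in KO, against 15.9 and 16.5 CPM in WT, with a log2 fold change of 0.02 (SE 0.16). The KO values of Ext1 enclose the WT values. The ratio of Ext2 to Ext1 per exon length was 3.49 and 2.88 in KO, against 1.97 and 1.72 in WT, without overlap.

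The linkage region showed no call. Xylt1 and Xylt2 attach the xylose on which every chain is built. Xylt1 had 9.80 and 6.31 CPM in KO, against 6.21 and 8.29 CPM in WT, and its groups overlap (0.15, SE 0.29). Xylt2 had 13.5 and 15.7 CPM in KO, against 13.2 and 9.81 CPM in WT (0.35, SE 0.20), with KO replicate 1 close above WT replicate 1. B3gat3, which adds the glucuronic acid that completes the linkage sugar, had 16.7 and 15.5 CPM in KO, against 17.9 and 17.4 CPM in WT (-0.13, SE 0.12). Under library size scaling B3gat3 was at 0.033.

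With all 4 libraries, edgeR called no gene of N-sulfation and epimerisation, and neither did DESeq2. Ndst1, the main N-deacetylase/N-sulfotransferase of these cells by level, had 79.0 and 70.9 CPM in KO, against 62.8 and 70.7 CPM in WT (0.17, edgeR adjusted p = 0.39). Ndst2 had 10.9 and 12.4 CPM in KO, against 14.1 and 13.7 CPM in WT (-0.25). Glce, the epimerase that turns glucuronic into iduronic acid, had 36.7 and 40.7 CPM in KO, against 23.7 and 29.2 CPM in WT. Its groups do not overlap, with a log2 fold change of 0.55 (SE 0.14) and an edgeR adjusted p of 0.089.

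With all 4 libraries and no covariate, edgeR called no O-sulfotransferase, and neither did DESeq2. Hs6st1, which adds the 6-O-sulfate groups, had 126 and 118 CPM in KO, against 52.2 and 91.95 CPM in WT. The WT libraries differ more from each other than WT replicate 2 does from KO, and the log2 fold change of 0.75 (edgeR adjusted p = 0.167) was 0.39 without WT replicate 1 and 1.25 without WT replicate 2. Exons of Hs6st1 overlap those of Gm37335 on the opposite strand over 447 bases (8.07% of the exon length), and Gm37335 had 85 and 113 counts in KO, against 46 and 48 in WT. The strandedness of the counting is not given, so reads of that stretch cannot be told apart.

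Hs3st1, which makes the antithrombin-binding site of the chain, had 15.4 and 12.3 CPM in KO, against 4.14 and 8.88 CPM in WT. Its log2 fold change was 1.08 (edgeR adjusted p = 0.155), with 0.63 without WT replicate 1 and 1.77 without WT replicate 2, again with WT replicate 1 as the low library. With sex as a covariate in edgeR, Hs3st1 was called higher, at 1.16. Hs3st3b1, another 3-O-sulfotransferase, had 13.1 and 13.2 CPM in KO, against 15.6 and 19.8 CPM in WT (-0.43, edgeR adjusted p = 0.163). Its copy Hs3st3a1 stood at 1.42 and 0.662 CPM in KO, against 1.25 and 0.968 CPM in WT. Its log2 fold change of -0.10 was 0.042 under library size scaling. The 2 transcripts share 416 runs of 50 bases, 10.7% of those of Hs3st3a1, so their counts are uncertain. Exons of F930015N05Rik on the opposite strand cover 32.9% of Hs3st3a1, with at most 7 counts in a library. Hs2st1, the gene of the uronyl 2-O-sulfotransferase, had 15.4 and 18.7 CPM in KO, against 15.5 and 15.4 CPM in WT (0.15, SE 0.15).

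Outside the cell, Sulf2 rose. Sulf2 (ENSMUSG00000006800, chromosome 2, 166073089 to 166155663, minus strand) encodes a secreted sulfatase that removes 6-O-sulfate groups from finished chains. It had 1519 and 1560 counts in KO, against 340 and 553 in WT, or 67.4 and 60.8 CPM in KO and 16.4 and 23.3 CPM in WT. The log2 fold change was 1.69 (SE 0.20, edgeR adjusted p = 0.0434), and the groups are well apart. Without single libraries it ran from 1.45 to 2.00. The ratio of Sulf2 to Hs6st1 per exon length was 0.506 and 0.487 in KO, against 0.296 and 0.239 in WT. Exons of Ncoa3 on the opposite strand cover 2.62% of the exon length of Sulf2, with 1151 and 1127 counts in KO, against 827 and 1304 in WT.

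Sulf1, the other sulfatase, had 4 and 51 counts in KO, against 5 and 5 in WT. The high value belongs to KO replicate 2, the library with the high fibroblast markers, and a link between the 2 was not tested. Hpse, heparanase, had 13.6 and 12.8 CPM in KO, against 7.56 and 8.08 CPM in WT, without overlap (0.75, SE 0.14, edgeR adjusted p = 0.0581).

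Of the glypicans, Gpc1 differed most. Gpc1 (ENSMUSG00000034220, chromosome 1, 92831645 to 92860779, plus strand) encodes a heparan sulfate core protein that is held at the membrane by a lipid anchor. It had 369 and 501 counts in KO, against 69 and 91 in WT, or 16.4 and 19.5 CPM in KO and 3.32 and 3.83 CPM in WT. The log2 fold change was 2.32 (SE 0.18), a fold of 5.01, and the groups are far apart. Exons of Ankmy1 on the opposite strand overlap 18.9% of its exon length, but Ankmy1 had at most 4 counts in any library.

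Gpc4, the most abundant glypican, had 33.4 and 29.4 CPM in KO, against 31.5 and 45.1 CPM in WT (-0.29, edgeR adjusted p = 0.385). The ratio of Gpc1 to Gpc4 per exon length was 0.251 and 0.341 in KO, against 0.0543 and 0.0437 in WT, so Gpc4 led in every library. Gpc2 had 2.53 and 3.78 CPM in KO, against 1.11 and 0.926 CPM in WT (1.63, SE 0.37, edgeR adjusted p = 0.0717). Exons of Gm43720 on the same strand cover 55.6% of the exon length of Gpc2, and Gm43720 had 0 counts in every library. Gpc3 had 3.86 and 7.99 CPM in KO, against 6.46 and 4.38 CPM in WT, and both male libraries were above both female ones. Gpc3 lies on the X chromosome, as does Gpc4, whose male libraries were below the female ones. Gpc6 had 0.71 and 2.22 CPM in KO, against 0.964 and 0.337 CPM in WT, and without KO replicate 2 its log2 fold change was 0.16.

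The syndecans differed in the direction of their fold changes. The main edgeR test called none. DESeq2 called Sdc3 higher and Sdc4 lower, and edgeR without a filter called Sdc3 higher. Sdc1, the syndecan of simple epithelia, had 175 and 191 CPM in KO, against 194 and 178 CPM in WT, with a log2 fold change of -0.02 (SE 0.13) that was 0.15 under library size scaling. Sdc1 is also a marker of plasma cells. Plasma cell and B cell markers summed to 81.9 and 61.1 CPM in KO, against 34.3 and 79.2 CPM in WT, with 0 of the 9 tested markers called. Sdc4, which sits at adhesion sites, was the 1 member with an edgeR adjusted p under 0.1 and a lower level in KO, with 94.9 and 102 CPM in KO, against 136 and 139 CPM in WT (-0.48, SE 0.11, edgeR adjusted p = 0.0715). The ratio of Sdc4 to Sdc1 per exon length was 0.81 and 0.797 in KO, against 1.05 and 1.17 in WT. By annotated exon length, Sdc4 was thus above Sdc1 in both WT libraries and below it in both KO libraries. That order depends on the length used, and in CPM Sdc1 was above Sdc4 in all 4 libraries. The fall of the ratio in KO does not depend on the length.

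Sdc3 had 5.28 and 8.61 CPM in KO, against 2.46 and 3.03 CPM in WT (1.34, SE 0.32, edgeR adjusted p = 0.0786). Sdc2 had 23.1 and 26.8 CPM in KO, against 18.6 and 12.8 CPM in WT (0.67, edgeR adjusted p = 0.129). Neither group pair overlaps.

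edgeR called neither core protein of the basement membrane, whereas DESeq2, and edgeR with library size scaling, called Hspg2 higher. Hspg2 (perlecan, ENSMUSG00000028763, chromosome 4, 137468769 to 137570630, plus strand) had 656 and 952 counts in KO, against 155 and 306 in WT, or 29.1 and 37.1 CPM in KO and 7.47 and 12.9 CPM in WT. The log2 fold change of 1.70 (SE 0.30) had an edgeR adjusted p of 0.0557, just outside the threshold. It was 1.35 without WT replicate 1 and 2.18 without WT replicate 2, both past the threshold, and 1.53 without KO replicate 2. Fibroblast markers summed to 91.5 and 628 CPM in KO, against 66.2 and 93.6 CPM in WT. In 3 of the 10, both KO libraries stood above both WT libraries, against 31.1% of all genes. The same held for 7 of 10 macrophage markers and for 1 of 9 tested plasma cell and B cell markers. It also held for 4 of 5 tested smooth muscle markers, 3 of 3 tested endothelial markers and 2 of 2 tested markers of glia and neurons. Endothelial markers, of which 3 of 10 had enough counts to be tested, summed to 15.3 and 16.1 CPM in KO, against 6.504 and 9.81 CPM in WT. Smooth muscle markers summed to 12.5 and 26.3 CPM in KO, against 7.56 and 10.9 CPM in WT. Markers of glia and neurons summed to 1.60 and 2.10 CPM in KO, against 0.819 and 0.968 CPM in WT. The part of these cells, of fibroblasts and of macrophages in the level of Hspg2 and of the other members was not tested. Agrn, the other core protein of the basement membrane, had 96.1 and 97.03 CPM in KO, against 66.2 and 78.7 CPM in WT (0.41, edgeR adjusted p = 0.114).

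**Figure D3:**
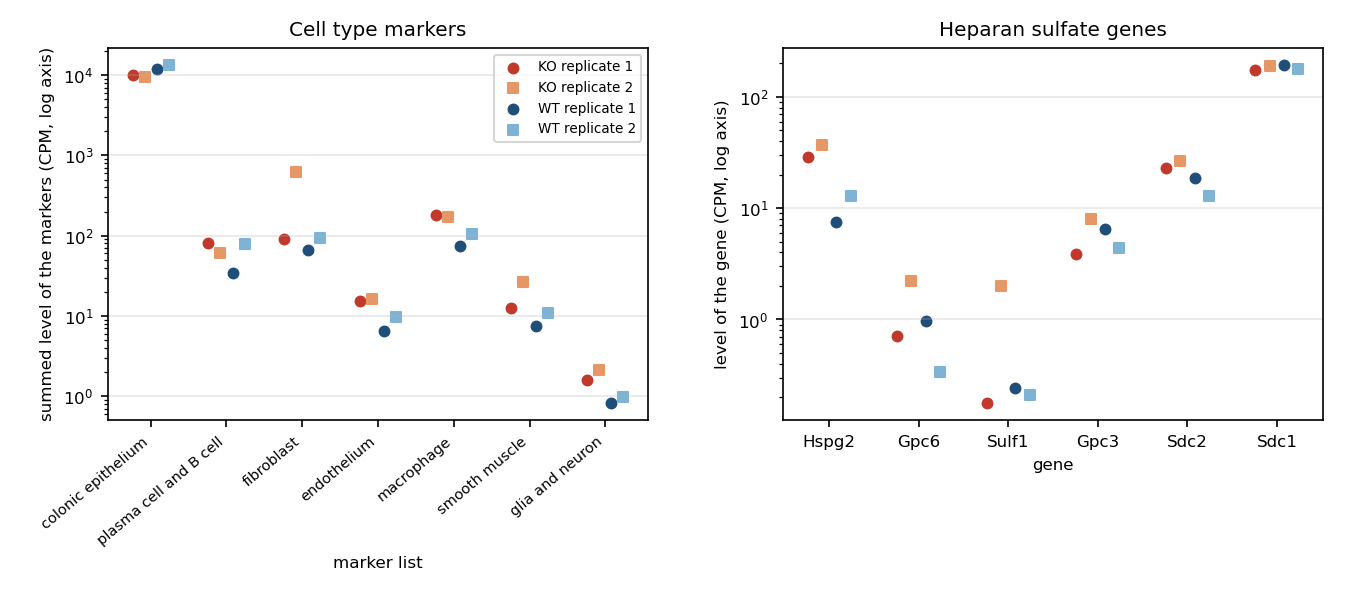
Summed level of the cell type markers in each library (left) and level of 6 heparan sulfate genes in each library (right), both in CPM on log axes. KO replicate 2 had a fibroblast sum of 628 CPM, 1.99 CPM of Sulf1 and 2.22 CPM of Gpc6. Hspg2 is above both WT libraries in both KO libraries. The part of fibroblasts in these levels was not tested.

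Summed by role and per exon length, chain initiation and elongation enzymes reached 18.4 and 19.7 CPM per kilobase in KO, against 11.2 and 10.3 in WT. Without Extl1, which chose the set, they stood at 13.3 and 14.1 in KO, against 10.8 and 9.71 in WT. Editing and cleavage enzymes reached 15.3 and 14.2 in KO, against 4.96 and 6.28 in WT, and basement membrane core proteins 12.4 and 13.0 in KO, against 7.66 and 9.38 in WT. Extl1 and Ext2 make up most of the KO level of the elongation sum, Sulf2 most of the editing sum in KO, and Agrn most of the basement membrane sum in every library. O-sulfotransferases stood at 34.6 and 31.9 in KO, against 16.7 and 26.7 in WT, of which Hs6st1 made up most. Syndecans stood at 90.7 and 99.3 in KO, against 110.1 and 105.3 in WT. Glypicans stood at 18.04 and 19.2 in KO, against 15.4 and 19.6 in WT, and overlapped, and without Gpc1 they stood at 14.9 and 15.4 in KO, against 14.7 and 18.9 in WT.

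**Figure D4:**
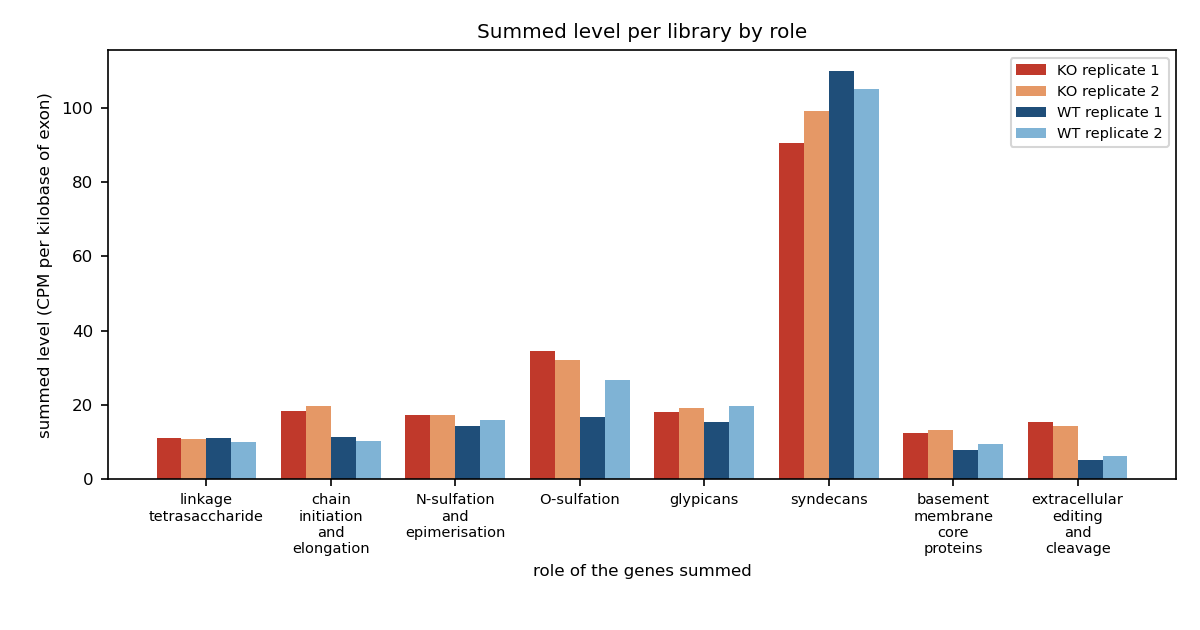
Summed level of the genes of each role in each library, in CPM per kilobase of exon, Extl1 and Gpc1 included, with KO libraries left of WT libraries. The editing and cleavage enzymes stand at 15.3 and 14.2 in KO and 4.96 and 6.28 in WT, whereas the 3 reported linkage genes lie between 10.04 and 10.9 in all libraries.

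The neighbours of the pathway were taken from 6 lists with 97 genes, of which 82 were tested. Over all lists, edgeR called 3 genes higher and 1 lower, against 1.72% higher and 1.90% lower over all genes. The calls of the lists are thus close to that background. In the list of the linkage region and the chondroitin branch, 0 of 15 were called higher and 1 lower. Chst15, a sulfotransferase of chondroitin sulfate, fell to 31.0 and 33.0 CPM in KO, against 67.4 and 76.3 CPM in WT (-1.17, SE 0.11, edgeR adjusted p = 0.0434). Chpf, a subunit of the chondroitin polymerase that was picked once its values were known, had 68.6 and 70.0 CPM in KO, against 8.48 and 20.2 CPM in WT (2.27, SE 0.42, edgeR adjusted p = 0.0581). Its log2 fold change was 1.77 without WT replicate 1 and 3.06 without WT replicate 2.

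Of 16 genes that supply sugar nucleotides and sulfate, 1 was called higher and 0 lower. Slc35b2, which carries the sulfate donor PAPS into the Golgi, rose to 42.5 and 44.4 CPM in KO, against 24.9 and 26.8 CPM in WT (0.75, SE 0.10, edgeR adjusted p = 0.0444). Ugdh, which makes the glucuronic acid donor of the chain and was likewise picked from its values, had 53.6 and 71.1 CPM in KO, against 202 and 115 CPM in WT (-1.34, edgeR adjusted p = 0.0802). Of 11 lysosomal breakdown genes, 1 was called higher, the glucuronidase gene Gusb. It had 89.5 and 90.6 CPM in KO, against 45.6 and 39.2 CPM in WT (1.09, SE 0.12, edgeR adjusted p = 0.0434). The median log2 fold changes of these lists were 0.38 for the chondroitin branch, -0.03 for supply and 0.16 for breakdown.

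Among 13 other proteoglycan core proteins, 1 was called higher, the hyaluronan receptor Cd44. It had 32.1 and 27.2 CPM in KO, against 12.6 and 14.2 CPM in WT (1.15, SE 0.14, edgeR adjusted p = 0.0434). The log2 fold change was positive in 12 of the 13 (median 1.13), and the list holds Dcn and Lum, which are also fibroblast markers, with 53.0 and 11.5 CPM in KO replicate 2. Cspg4, a proteoglycan of mesenchymal cells picked from its values, had 68 and 61 counts in KO, against 5 and 1 in WT (edgeR adjusted p = 0.0518), and its log2 fold change ran from 3.49 to 5.83 with 1 library left out. Among 18 growth factor and receptor genes that depend on heparan sulfate, 0 were called, with 3 higher and 6 lower at an unadjusted p under 0.05, against 14.8% and 15.7% of all genes. The 2 genes of this list with the highest mean CPM over the 4 libraries were Hbegf, at 108 and 77.5 CPM in KO, against 186 and 276 CPM in WT (-1.32, edgeR adjusted p = 0.0635), and Vegfa, at 76.7 and 85.7 CPM in KO, against 139 and 174 CPM in WT (-0.95, edgeR adjusted p = 0.0518). Of 9 shedding and trafficking genes 0 were called, with 1 higher and 2 lower at an unadjusted p under 0.05, which is near the shares over all genes. Sdcbp, a cytosolic partner of the syndecans, was at -0.37 and its partner Pdcd6ip at -0.44. The medians of these 2 lists were -0.16 and 0.26. DESeq2 called 13 genes of the 6 lists higher and 9 lower.

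**Figure D5:**
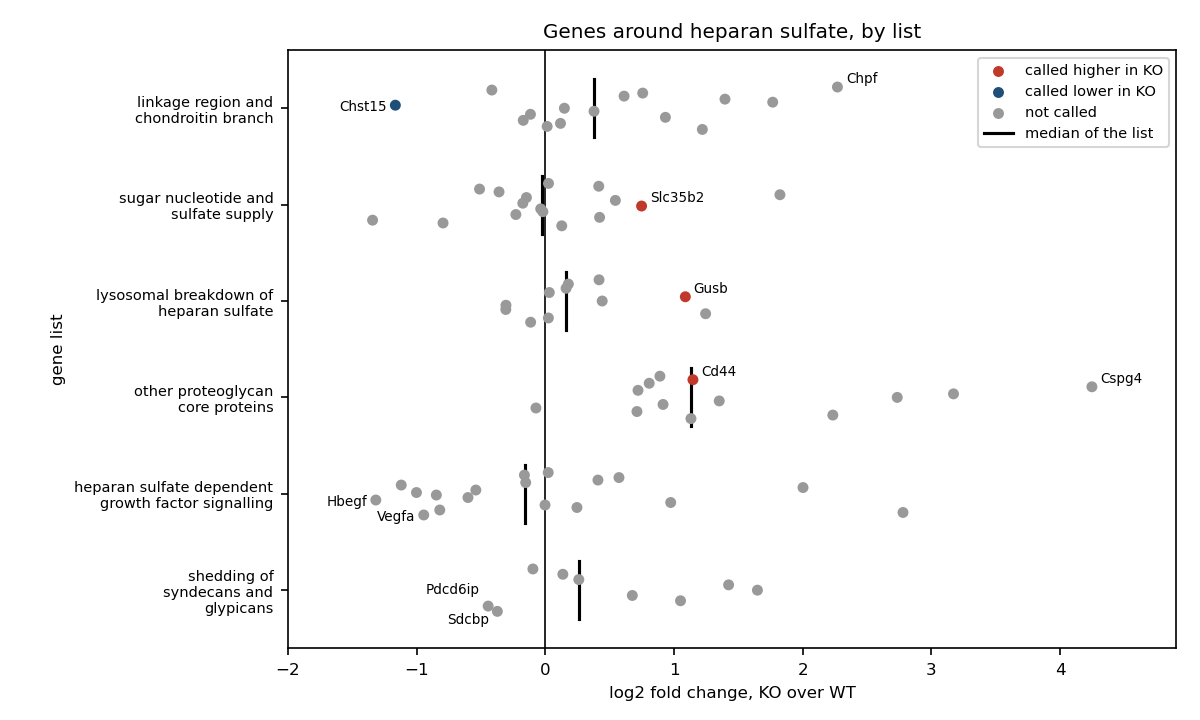
Log2 fold change, KO over WT, of each tested gene of 6 lists around heparan sulfate, with called genes in colour and the median of each list as a black bar. The other proteoglycan core proteins have the highest median, 1.13, and the called genes are Chst15, Slc35b2, Gusb and Cd44.

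The m6A writer is known to prefer a short motif around the methylated adenosine, of which the letters GGACT are a common form. They were counted in the longest protein-coding transcript of each gene. The 29 tested members had a median of 1.21 per kilobase, against 1.05 over 13530 genes, and 18 of the 29 were above that median. Extl1 was low, with 3 in 4126 bases (0.727 per kilobase, above 29.6% of genes), and Hpse had 0 in 3117 bases. Gpc2 was highest, with 8 in 2586 bases (above 98.1% of genes), while Ext2, Sulf2 and Gpc1 stood at 1.39, 1.31 and 1.44 per kilobase. Methylation was not measured in these libraries, and the count of letters does not show which sites carry m6A.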

How the data were processed

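RNA was measured in 2 KO and 2 WT libraries, grouped by the genotype label. Replicate numbers follow accession order and pair no samples. Counts were used as deposited. They are whole numbers whose totals differ between libraries, which is how raw counts look. Per the submitters' processing notes, FastQC 0.11.2, STAR 2.4.2a, RSEM 1.2.29 and mm10 were used, with no role stated. For the annotation release, the strandedness and any rounding of estimates, the sources used here give nothing.

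Gene coordinates and exon lengths (union of exons) are from GENCODE M21 (GRCm38), which held 99.56% of the identifiers. Promoters are RefSeq's. Genes kept by filterByExpr were scaled by TMM and tested with edgeR 4.0.16 in R 4.3.3 (quasi-likelihood F-test, legacy and robust, KO over WT, two-sided, Benjamini-Hochberg over all genes, threshold 0.05). SE is the log2 fold change divided by the square root of F. CPM are TMM-scaled. The test was checked on simulated data. Alternatives were other scalings, DESeq2 1.42.0, legacy off, 2 other filters, omission of abundant genes, sex as a covariate and omission of each library. Every tested member was named, and of each pathway list its called genes or the most abundant 2. The members and lists were chosen with earlier results of these data known.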

Additional observations from a re-analysis of the deposited data

How the results depend on the processing

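No paired analysis was possible because the labels give no replicate numbers shared between KO and WT, but each genotype held 1 male and 1 female library, so sex could be fitted as a covariate. Of the 27 members other than Extl1 and Gpc1, 2 were called higher and 0 lower. With 1 library left out these counts ran from 0 to 8 and stayed at 0. Over all genes the counts without 1 library ran from 0 to 1271 higher and from 0 to 1019 lower, and in the pathway lists from 0 to 9 higher and from 0 to 6 lower. An omission that leaves 1 KO or 1 WT library assumes that this library varies like the other group. DESeq2 called 949 genes higher and 973 lower, 6 members higher and 1 lower, and 13 pathway genes higher and 9 lower. Without a filter, 862 genes were higher and 770 lower, 5 members higher, and 6 pathway genes higher and 6 lower. With library size scaling, 604 genes were higher and 186 lower (76.5% higher against 47.5% with TMM), 4 members higher and 2 pathway genes lower. With sex as a covariate, 696 genes were higher and 713 lower, 3 members were higher (Hs3st1 beside Ext2 and Sulf2), and 6 pathway genes were higher and 5 lower. With a filter of CPM 1 in 2 libraries, 2 pathway genes were lower. The cause of these shifts was not tested.

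Ext2 and Sulf2 were called in 10 of 12 alternatives, all but the omission of either KO library. Extl1 and Gpc1 were higher in all 12.

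Values near 0 changed sign. With library size scaling B3gat3 was at 0.033, Extl2 at 0.095, Hs3st3a1 at 0.042 and Sdc1 at 0.15. Sdc1 was at 0.0057 without a filter and at 0.0091 without mitochondrial and abundant genes. Without 1 library, Xylt1 ran from -0.21 to 0.45, Extl2 from -0.19 to 0.089, Ext1 from -0.14 to 0.17, Hs3st3a1 from -0.75 to 0.38, Gpc3 from -0.46 to 0.55, Gpc4 from -0.53 to 0.030 and Sdc1 from -0.063 to 0.035. With 2 libraries a group the precision is limited, and depth left 10 members with too few counts to test.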
